A study of Mus musculus with 20 samples.

Results

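The genes of the major histocompatibility complex (MHC) and their helpers in antigen presentation were followed in whole mouse kidneys. The set held every row of the deposited count table whose symbol starts with H2- or is B2m, Cd74, Ciita, Nlrc5, Tap1, Tap2 or Tapbp, which gave 44 of 25638 genes. By role these were 27 class I heavy chains, the class I light chain B2m, 3 peptide loading genes (Tap1, Tap2, Tapbp), 10 class II genes including the invariant chain Cd74, the transactivators Ciita and Nlrc5, and H2-Ke6. The deposited description of H2-Ke6 names an estradiol 17-beta dehydrogenase, so it carries an H2 symbol without being an MHC chain and was kept out of both classes.

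The study asked how 7-hydroxycoumarin glucuronide (7-HCG), given by mouth, bears on kidney injury from cisplatin, a platinum drug that damages the tubule. Male C57BL/6J mice aged 6 to 8 weeks and weighing 18 to 22 g formed 4 groups of 5. Controls received oral PBS and intraperitoneal saline, the cisplatin group oral PBS and cisplatin at 10 mg/kg, and the other two groups oral 7-HCG at 15 or 30 mg/kg with the same cisplatin dose. Oral dosing ran daily for 5 days, cisplatin was injected on day 3, and kidneys were taken 72 h after it. No animals on 7-HCG without cisplatin were analysed here, so both 7-HCG groups carry the cisplatin exposure as well. The assay was poly(A)-selected RNA sequencing of the whole organ, which mixes tubule, vessel and immune cells, so that fewer cells of a type and less RNA per cell cannot be told apart.

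Class I molecules pair a heavy chain with B2m and show peptides from the cell's own proteins to CD8 T cells. The peptides come from the proteasome, cross into the endoplasmic reticulum through the Tap1/Tap2 transporter and are loaded with the help of tapasin, the product of Tapbp. Class II molecules are alpha and beta chain pairs that show peptides from endosomes to CD4 T cells; Cd74 holds the groove until it is degraded, H2-DM exchanges the remaining fragment for peptide, and H2-O restrains H2-DM. Ciita is the master coactivator of class II genes and Nlrc5 its counterpart for class I, and both act through factors bound to the X and Y boxes of the promoters. Dendritic cells, macrophages and B cells carry class II at rest, and tubular epithelium can acquire it in inflammation.

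Promoters of 4 members are shown as examples of the motif matches in class II and class I genes: the class II chains H2-Aa and H2-Eb1, the class I heavy chain H2-T22 and the light chain B2m. Each sequence is the 200 bases before the annotated start, from RefSeq (GRCm38.p6), written 5′ to 3′ on the gene's strand. Capitals mark the matches, on either strand, to the X box core AGNNACNGNTG, the CCAAT box ATTGG, the interferon-stimulated response element (ISRE) GAAANNGAAA and the kappaB site GGGNNTNCCC. Both the 4 genes and the length shown were settled after the matches had been seen.
H2-Aa (chr17:34287824-34288023, minus strand): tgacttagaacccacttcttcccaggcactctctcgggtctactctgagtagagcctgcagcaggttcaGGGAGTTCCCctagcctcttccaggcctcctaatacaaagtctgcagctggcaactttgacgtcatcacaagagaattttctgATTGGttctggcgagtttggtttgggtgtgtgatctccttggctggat
H2-Eb1 (chr17:34305667-34305866, plus strand): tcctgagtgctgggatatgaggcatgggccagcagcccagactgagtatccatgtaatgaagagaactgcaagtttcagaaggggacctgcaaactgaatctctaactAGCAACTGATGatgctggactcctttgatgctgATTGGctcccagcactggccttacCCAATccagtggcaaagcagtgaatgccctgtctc
H2-T22 (chr17:36042743-36042942, minus strand): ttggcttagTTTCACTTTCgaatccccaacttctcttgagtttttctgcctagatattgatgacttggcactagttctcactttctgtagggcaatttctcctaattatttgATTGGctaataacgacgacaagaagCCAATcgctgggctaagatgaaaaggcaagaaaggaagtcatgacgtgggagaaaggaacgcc
B2m (chr2:122147487-122147686, plus strand): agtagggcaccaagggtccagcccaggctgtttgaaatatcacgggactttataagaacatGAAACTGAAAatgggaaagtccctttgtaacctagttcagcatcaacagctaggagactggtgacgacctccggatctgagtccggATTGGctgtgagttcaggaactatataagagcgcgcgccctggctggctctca

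A promoter entry was found for 34 members. Over the 250 bases before the start, the X box core was present in 9 of the 34 and in 3.74% of all 32851 promoters in the table. Of the 8 class II members with an entry, 4 held it (H2-Eb1, H2-DMb1, H2-Oa and H2-Eb2). The others with a match were Tap1 and the heavy chains H2-M10.1, H2-M10.2, H2-M10.5 and H2-M10.6. Those heavy chains had at most 4 reads in any library. The pattern is strict, so a promoter without a match may still hold an X box. The CCAAT box was present in 31 of the 34, against 33.8% of all promoters. The ISRE was present in 3 (H2-T22, H2-T23 and B2m), against 2.98%, and the kappaB site in 8, among them H2-K1, H2-D1 and H2-Aa, against 4.29%. The ISRE and kappaB patterns are strict too, so a promoter without a match, B2m for the kappaB site included, may still hold such a site. These matches are letters in a window and were not tested for binding or use.

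The libraries held 10714532 to 49602115 counted reads, and 3 reads, the detection floor, were worth 0.0496 to 0.375 CPM, the usual unit that scales a count to its library size. In all, 31 members passed the filter on low counts, namely 15 class I heavy chains, 9 class II genes, B2m, the 3 loading genes, both transactivators and H2-Ke6. The other 13 reached at most 10 reads in a library, and 6 of them, all of the H2-M group, had no read in any library. Mitochondrially encoded mRNA made up 24.6 to 45.5% of the counts in controls and 16.6 to 77.7% in the cisplatin group, with cisplatin replicates 9 and 10 highest. In kidneys given 7-HCG the share stayed between 3.04 and 7.38% (15 mg/kg) or between 5.12 and 8.01% (30 mg/kg). The summed CPM of the tubular injury markers Havcr1, Lcn2, Krt20 and Sox9 ran from 8.33 to 59.8 in controls and from 270 to 522 after cisplatin. With 15 mg/kg of 7-HCG the sum lay between 15.6 and 866, and with 30 mg/kg between 22.0 and 1804, so some of those kidneys lay within the control range. Adipose markers summed to 437 CPM in control replicate 2 and 1904 CPM in control replicate 5, against at most 117 CPM in the other controls.

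In control kidneys the light chain was the most abundant member per length, at 1132 ± 470 CPM per kilobase of exon (SD, n = 5). Cd74 followed at 338 ± 174 CPM per kilobase, ahead of the classical heavy chains H2-D1 at 282 ± 55.6 and H2-K1 at 209.6 ± 57.4. Cd74 and H2-D1 come from the same 5 libraries, so these SDs between animals do not measure the difference between them. Their order was not tested. The class II chains stood lower, with H2-Ab1 at 96.8 ± 61.6, H2-Eb1 at 72.5 ± 35.7 and H2-Aa at 47.9 ± 23.0 CPM per kilobase. The order among these chains was not tested either. The transactivators were far down the order, Nlrc5 at 2.54 ± 1.74 and Ciita at 1.45 ± 1.10 CPM per kilobase. H2-Ob, a chain of the H2-DM inhibitor that is best known from B cells, was at 0.272 ± 0.125.

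Summed over members, class II varied more among animals than class I. The highest animal exceeded the lowest 9.63-fold for class II and 2.67-fold for class I in the cisplatin group. At 15 mg/kg 7-HCG these were closer, 2.03-fold and 1.44-fold. The class I heavy chain sum ran from 1229 to 3280 CPM in the cisplatin group, with a median of 2129, and from 1399 to 2719 in controls, with a median of 1897. The class II sum of the same cisplatin kidneys ran from 211 to 2032 CPM with a median of 324, against 594 to 2161 in controls with a median of 1003. Within the cisplatin group the animals fell apart: replicates 2, 9 and 10 lay between 211 and 324 CPM, while replicates 3 and 6 lay at 959 and 2032. At 15 mg/kg 7-HCG the class II sum ran from 1316 to 2669 CPM with a median of 2073, and 3 of the 5 animals lay above every cisplatin animal. At 30 mg/kg it ran from 349 to 2650 CPM with a median of 776, again with low and high animals side by side. The class I sum was also higher at 15 mg/kg in its median, 2636 CPM, and ran from 2432 to 3508 CPM. At 30 mg/kg the class I sum ran from 1219 to 3882 CPM with a median of 1788.

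**Figure D1:**
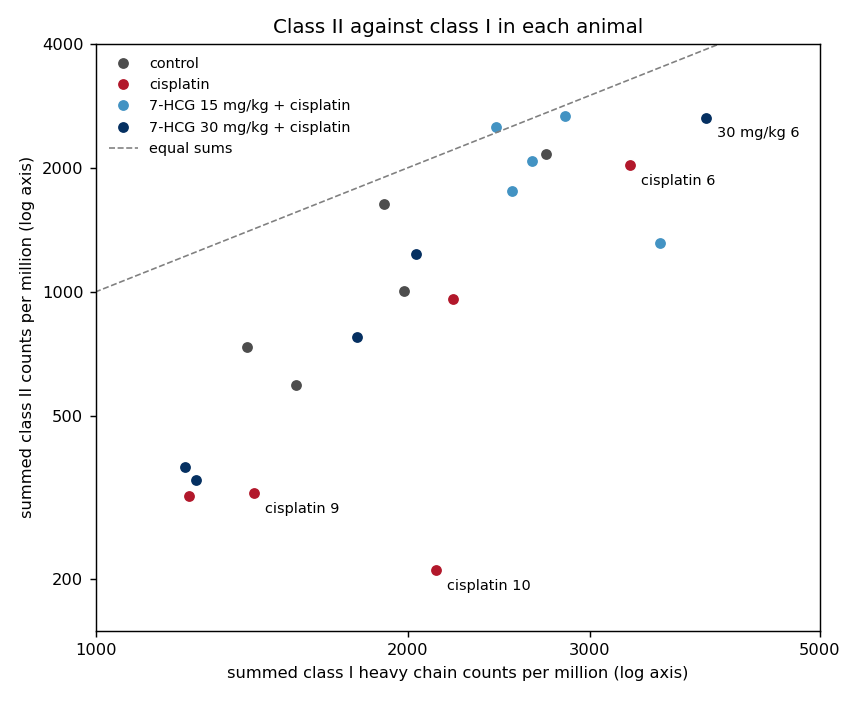
Summed class II against summed class I heavy chain CPM in each of the 20 animals, both on log axes, coloured by group, with the dashed line marking equal sums. Only 1 of 20 animals, from the 15 mg/kg group, lies above the line, and cisplatin replicate 10 combines a mid-range class I sum with the lowest class II sum, 211.

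The ratio of these sums shows this balance in each animal. On the log2 scale, class II over class I in controls was −1.39, −0.98, −0.93, −0.33 and −0.22. The cisplatin kidneys gave −3.33, −2.14, −1.95, −1.21 and −0.69, so 3 of the 5 lay below every control. The 15 mg/kg kidneys gave −1.41, −0.52, −0.35, −0.09 and 0.05, and the 30 mg/kg kidneys −1.84, −1.70, −1.20, −0.73 and −0.55. All of these ranges overlap. The group means differed by −1.09 for cisplatin against control and by 1.40 for 15 mg/kg against cisplatin, beside within-group SDs of 0.49 in controls, 1.01 in the cisplatin group and 0.57 in each 7-HCG group. These are descriptions of sums over the members and were given no p-value.

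Cisplatin against control. Class II members were mostly lower in cisplatin kidneys, but the spread between animals was wide and H2-Ob was the only 1 of the 31 tested members to pass an adjusted p below 0.05 over all genes. Of 14858 genes tested, 13.4% passed in this comparison. Class II fold changes were negative for 8 of 9 members with a median log2 of −0.69, and class I heavy chains were negative for 8 of 15 with a median of −0.10, beside a median of −0.01 over all genes.

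H2-Ob read 0.638, 0.968, 1.47, 2.08 and 2.16 CPM in the controls and 0.250, 0.306, 0.426, 0.432 and 0.482 CPM after cisplatin. The groups did not overlap, as was the case for 10.4% of all genes, and H2-Ob fell (log2 fold change −1.89 ± 0.60 (SE), adjusted p = 0.0417, 3.71-fold lower). These levels rest on few reads, and the call was lost in 19 of 30 alternative analyses, including the removal of any 1 cisplatin animal. The B cell marker sum moved the same way, from 3.16 to 5.89 CPM in controls to 0.994 to 2.83 CPM after cisplatin, with Ms4a1 at 0 in every cisplatin library. All 4 tested B cell markers were negative, with a median log2 fold change of −1.49, but none was called. The part of B cells in the H2-Ob result was not tested.

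The abundant class II chains did not pass. In the authors' deposited table H2-Ob and H2-Oa, its alpha chain partner, were lower at a q-value below 0.05. H2-Ab1, the beta chain of I-A, read 98.2, 129, 194, 350.0 and 472 CPM in controls and 27.0, 50.5, 56.0, 195 and 469 CPM in cisplatin kidneys. The 3 lowest cisplatin animals lay below every control, and the highest lay just under the highest control (log2 fold change −0.64 ± 0.71 (SE), adjusted p = 0.594). H2-Aa, its alpha chain partner, read 95.6, 128, 163, 202 and 321 CPM in controls and 26.1, 49.5, 62.2, 121 and 303 CPM in cisplatin kidneys. The same split among animals is seen (log2 fold change −0.69 ± 0.59 (SE), adjusted p = 0.475). Cd74 ran from 294 to 939 CPM in controls and from 97.0 to 919 CPM after cisplatin (log2 fold change −0.68 ± 0.59 (SE), adjusted p = 0.482). Macrophage and monocyte markers summed to 134 to 209 CPM in controls and 87.2 to 126 CPM after cisplatin, with Ccr2, Cx3cr1 and Ly6c2 called lower. Dendritic cell markers summed to 17.6 to 27.4 CPM and 7.30 to 19.6 CPM, with Xcr1 called lower. The part of these cells in the class II values was not tested.

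Ciita read 3.95, 4.36, 12.8, 19.0 and 28.8 CPM in controls, so the controls themselves fell into low and high animals. In the cisplatin group it read 2.97, 3.06, 3.74, 4.25 and 23.0 CPM, where replicate 6 alone was high (log2 fold change −0.86 ± 0.65 (SE), adjusted p = 0.404). That animal also had the highest level in its group of H2-Ab1, H2-Aa, Cd74, B2m, H2-K1, H2-D1, Tap1, Tapbp and Nlrc5.

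On the class I side, H2-K1 read 436, 493, 614, 667 and 868 CPM in controls and 372, 432, 752, 875 and 1249 CPM in cisplatin kidneys, and the groups overlapped (log2 fold change 0.26 ± 0.36 (SE), adjusted p = 0.68). H2-D1, the other classical heavy chain of this strain, ran from 593 to 968 (median 693) CPM in controls and from 439 to 1229.6 (median 779) CPM after cisplatin (log2 fold change 0.11 ± 0.32 (SE), adjusted p = 0.854). B2m read 587, 729.9, 905, 1011 and 1635 CPM in controls and 186, 266, 498, 813 and 1497 CPM after cisplatin. The 3 lowest cisplatin values lay under every control (log2 fold change −0.58 ± 0.43 (SE), adjusted p = 0.394). The dehydrogenase H2-Ke6 narrowly missed the threshold in the other direction (log2 fold change 0.67 ± 0.23 (SE), adjusted p = 0.0543).

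**Figure D2:**
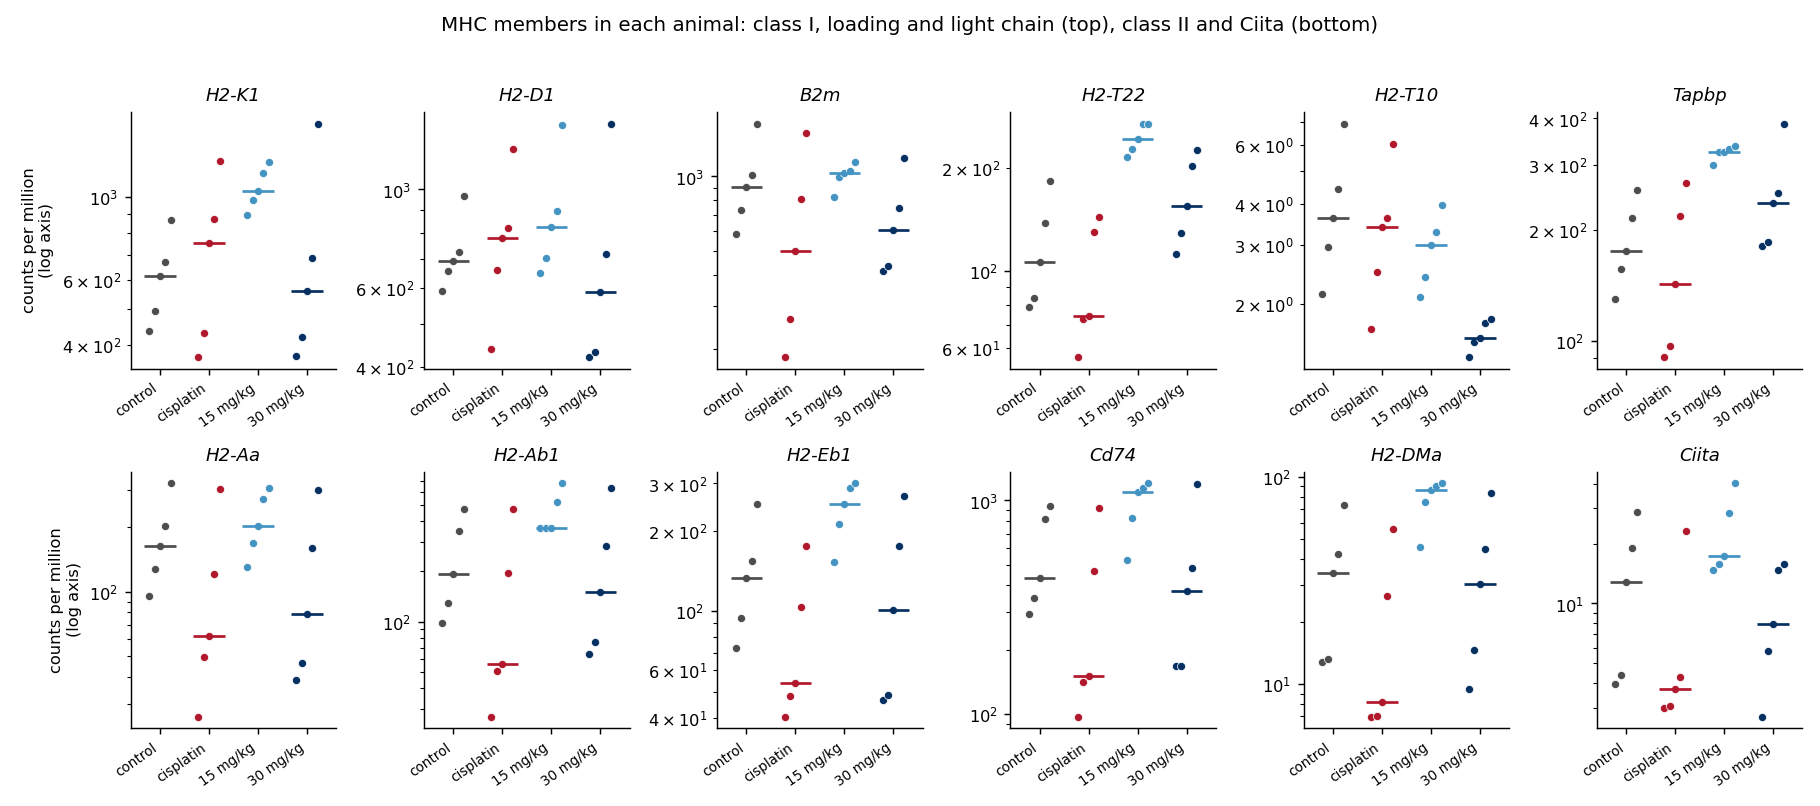
CPM (log axis) of 12 members in each animal of the 4 groups, with horizontal lines at the medians. The H2-Ab1 values spread from 27.0 to 469 after cisplatin and from 362 to 674 at 15 mg/kg, and the Tapbp values at 15 mg/kg lie between 299 and 336, above all cisplatin animals.

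7-HCG at 15 mg/kg against cisplatin. Here 5 of 31 tested members rose and none fell, beside 37.5% of all genes called and 18.9% of all genes called higher. The 5 were the heavy chains H2-T22 and H2-T23, the loading factor Tapbp and the class II genes H2-DMa and H2-Eb1. The share of tested members called was 16.1%. All 9 tested class II members had a positive log2 fold change with a median of 1.52, beside −0.05 over all genes and 0.15 over the class I heavy chains, of which 9 of 15 were positive.

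H2-T22 encodes a nonclassical heavy chain that gamma-delta T cells are known to bind. It read 56.4, 72.5, 74.0, 130.1 and 144 CPM after cisplatin and 215, 226, 243, 268 and 269 CPM at 15 mg/kg. Every 15 mg/kg animal lay above every cisplatin animal, a separation seen for 2 members and for 20.2% of all genes, and H2-T22 rose 2.56-fold (log2 fold change 1.35 ± 0.28 (SE), adjusted p = 0.0011). The call held in all 30 alternative analyses. Annotated exons of H2-T22 overlap the opposite-strand gene A930015D03Rik over 29.4% of their length. The strand setting of the counting is not given in the sources used here, so reads of the pair cannot be told apart.

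Tapbp read 90.4, 96.8, 142, 217 and 267 CPM after cisplatin and 299, 325, 325, 329.9 and 336 CPM at 15 mg/kg. The 15 mg/kg animals were close together and lay above all cisplatin animals (log2 fold change 0.99 ± 0.28 (SE), adjusted p = 0.00964, 1.98-fold higher). Its exons overlap the opposite-strand gene Gm19412 over 24.9% of their length. H2-T23, the heavy chain of Qa-1 that presents leader peptides to NK receptors, ran from 72.7 to 301 (median 143) CPM after cisplatin and from 288 to 532 (median 319) CPM at 15 mg/kg. The highest cisplatin animal overlapped the 15 mg/kg group (log2 fold change 1.07 ± 0.35 (SE), adjusted p = 0.0206). The transporter genes were higher without passing, Tap1 with log2 fold change 0.94 ± 0.47 (SE), adjusted p = 0.123 and Tap2 with log2 fold change 0.65 ± 0.31 (SE), adjusted p = 0.0988.

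Among class II genes, H2-DMa, the alpha chain of the peptide exchange factor, read 6.99, 7.04, 8.25, 26.5 and 56.0 CPM after cisplatin and 45.8, 75.9, 86.3, 90.7 and 93.1 CPM at 15 mg/kg. One cisplatin animal, replicate 6, overlapped the treated group and H2-DMa rose 3.69-fold (log2 fold change 1.88 ± 0.66 (SE), adjusted p = 0.0314). H2-Eb1, the beta chain of I-E, read 40.3, 48.1, 54.0, 104 and 176 CPM after cisplatin and 153, 211, 251, 289 and 301 CPM at 15 mg/kg, with the same single animal overlapping (log2 fold change 1.51 ± 0.48 (SE), adjusted p = 0.0191). The H2-DMa call was lost in 7 of 30 alternatives, among them the omission of any one of cisplatin replicates 2, 9 and 10. The H2-Eb1 call was lost in 1. The I-E alpha chain is known not to be made in this strain, and no row for it was in the set.

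The remaining class II genes pointed the same way without passing. H2-Ab1 read 362, 366, 366, 519.6 and 674 CPM at 15 mg/kg (log2 fold change 1.52 ± 0.72 (SE), adjusted p = 0.103). H2-DMb1, the beta chain partner of H2-DMa, ran from 4.25 to 69.7 (median 11.8) CPM after cisplatin and from 54.0 to 113 (median 75.0) CPM at 15 mg/kg (log2 fold change 1.65 ± 0.69 (SE), adjusted p = 0.0667). For Cd74 the values were 97.0, 142, 151, 466 and 919 CPM and 528, 824, 1095, 1144 and 1205 CPM (log2 fold change 1.43 ± 0.60 (SE), adjusted p = 0.0653). Ciita read 14.7, 15.8, 17.4, 28.5 and 40.2 CPM at 15 mg/kg, above 4 of the 5 cisplatin animals in every case (log2 fold change 1.62 ± 0.66 (SE), adjusted p = 0.0581), while Nlrc5 did not pass (log2 fold change 0.01 ± 0.48 (SE), adjusted p = 0.989). In the authors' deposited table, 11 members passed a q-value below 0.05 in this comparison, all higher, among them Cd74, Ciita, H2-Ab1, H2-DMb1 and Tap1. The share of all genes passing in that table was not counted, here or in later comparisons, so these counts have no background.

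The number of calls depended on which cisplatin animals were included. Without cisplatin replicate 6, 14 members passed, all higher, among them H2-Aa, H2-Ab1, Cd74, Ciita and B2m. In that setting 34.5% of all genes were called, with 2640 of 15063 higher. Without replicates 9 and 10, which had the most mitochondrial mRNA, H2-T22 alone passed while 25.2% of all genes still did. In marker sums, the 15 mg/kg kidneys ran from 97.7 to 174 CPM for macrophages and monocytes against 87.2 to 126 CPM after cisplatin. Dendritic cell markers ran from 4.47 to 12.7 CPM against 7.30 to 19.6 CPM, and B cell markers from 1.15 to 2.55 CPM against 0.994 to 2.83 CPM. Of the individual macrophage markers C1qa and Ly6c2 were called higher and Mrc1 lower, and of the dendritic cell markers Zbtb46 was called lower. Leaving the mitochondrial mRNAs out of the counts kept the same 5 calls, beside 37.5% of all genes called. Otherwise the part of these cells and of the mitochondrial share in the class II values was not tested.

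**Figure D3:**
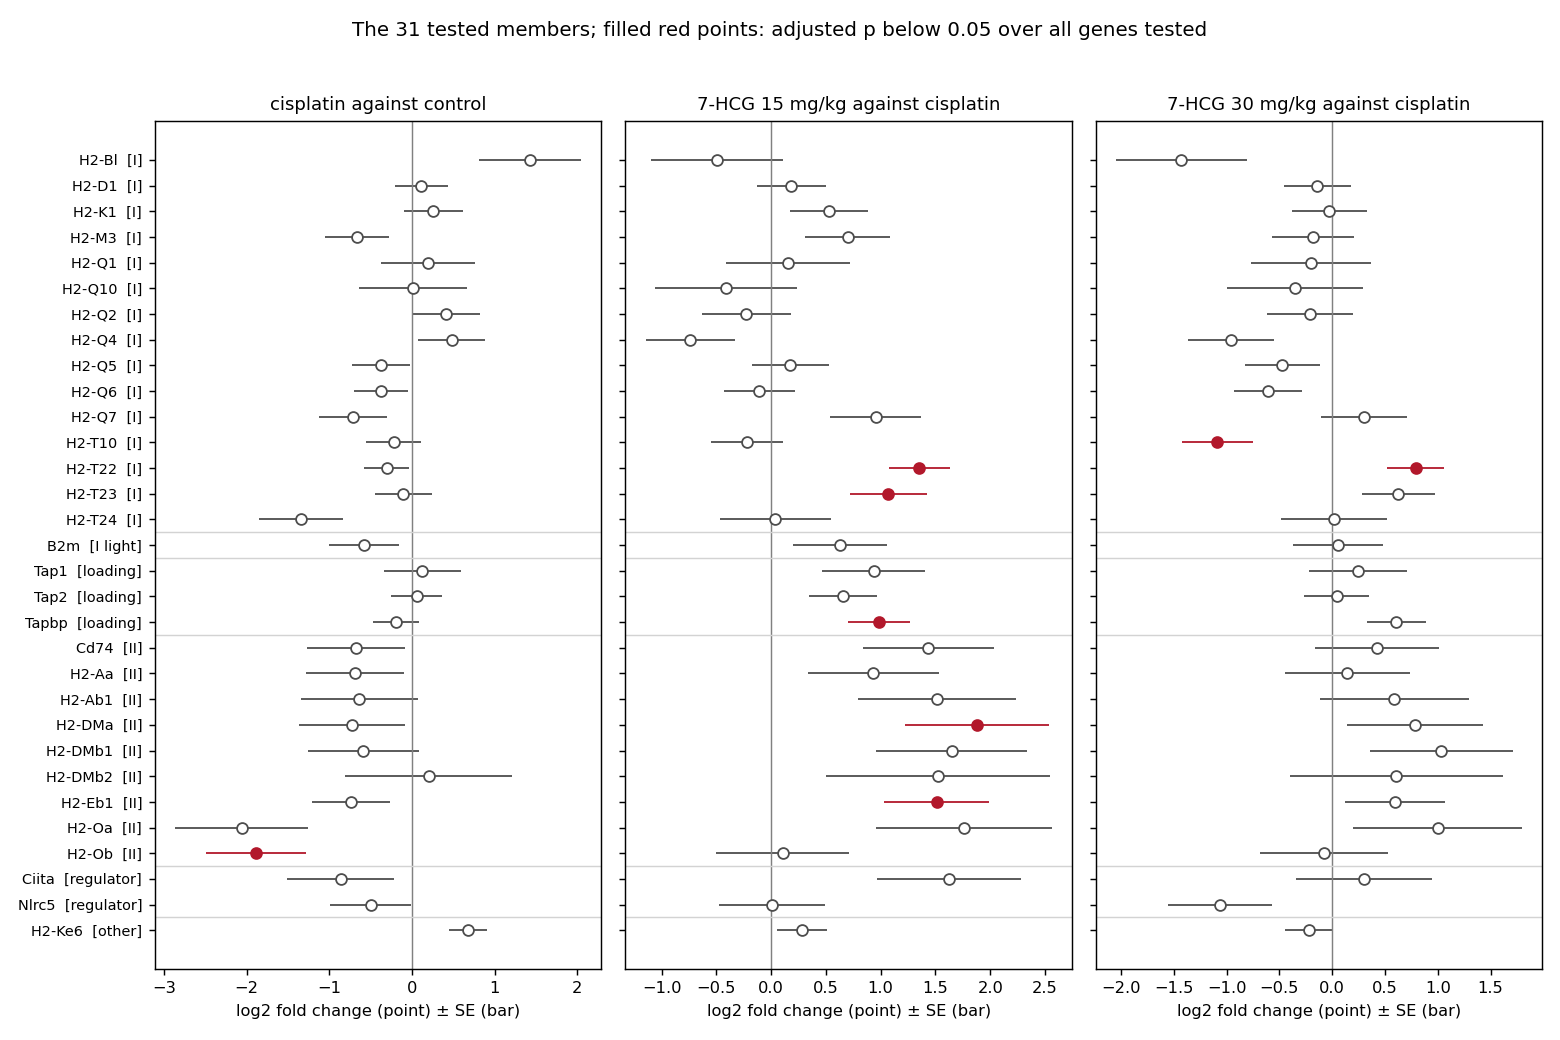
Log2 fold change with its standard error for each of the 31 tested members, ordered by role, in 3 comparisons that share the cisplatin libraries, with filled red points for an adjusted p below 0.05. At 15 mg/kg all 9 class II points lie right of 0 and 2 of them are filled, while at 30 mg/kg only the heavy chains H2-T22 and H2-T10 are filled, on opposite sides.

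7-HCG at 30 mg/kg against cisplatin. Only 2 of 31 members passed, beside 27.9% of all genes, and both are nonclassical heavy chains that moved in opposite directions. No member had groups without overlap, beside 18.6% of all genes. In the authors' deposited table no member had a q-value below 0.05 here, with H2-T22 at 0.0515 and H2-T10 at 0.0513. H2-T22 rose to 113, 129.5, 155, 202 and 226 CPM, overlapping the cisplatin range (log2 fold change 0.79 ± 0.27 (SE), adjusted p = 0.0355), and this call was lost in 10 of 30 alternatives, among them the omission of any one of cisplatin replicates 2, 9 and 10. H2-T10, annotated as a polymorphic pseudogene and closely related to H2-T22, read 1.69, 2.50, 3.40, 3.62 and 6.02 CPM after cisplatin and 1.39, 1.54, 1.58, 1.76 and 1.80 CPM at 30 mg/kg. The 30 mg/kg animals were tightly grouped at the bottom of the cisplatin range, and H2-T10 fell (log2 fold change −1.09 ± 0.34 (SE), adjusted p = 0.0207). The call was lost without cisplatin replicate 9, which had the highest level in its group. H2-T10 and H2-T22 share 15 exact 150-base windows, 0.38% of those of H2-T22, and H2-T10 exons overlap the opposite-strand BC023719 over 27.1% of their length.

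Class II genes at 30 mg/kg varied widely among animals, and none passed. H2-Ab1 read 64.1, 75.2, 151, 284 and 630.4 CPM, from the level of the low cisplatin kidneys to above the highest control (log2 fold change 0.59 ± 0.71 (SE), adjusted p = 0.557). H2-Eb1 read 46.4, 48.4, 101, 175 and 269 CPM and H2-DMa 9.44, 14.7, 30.5, 44.7 and 83.9 CPM, and neither passed (adjusted p = 0.357 and 0.375). The median over the 9 class II genes was 0.60, positive for 8, and that of the class I heavy chains was −0.20. Tapbp ran from 180.3 to 387 (median 236) CPM (log2 fold change 0.61 ± 0.28 (SE), adjusted p = 0.106). H2-K1 read 373, 420.5, 560.0, 685 and 1576 CPM and B2m 413, 434, 605, 747 and 1185 CPM, in each case with replicate 6 at the top (adjusted p = 0.964 and 0.938).

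The H2-T22 to H2-T10 ratio of CPM separated the groups that received 7-HCG from those that did not. It was 15.3, 23.0, 36.6, 41.3 and 46.6 in controls and 9.37, 29.0, 38.3, 39.7 and 43.9 after cisplatin. At 15 mg/kg it was 67.6, 69.0, 80.5, 101.7 and 111, and at 30 mg/kg 71.8, 73.2, 88.3, 127 and 162. The lowest 7-HCG animal lay above the highest animal without it. The ratio was formed after both genes had been seen to move and was given no test. How many other gene ratios separate these animals was not counted. The mitochondrial mRNA share also separated them, at 3.04 to 8.01% with 7-HCG and 16.6 to 77.7% without. Its part in the ratio was not tested. Both genes also overlap opposite-strand genes, as given above.

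Both 7-HCG groups were also set against controls, in comparisons that share the control libraries. At 15 mg/kg, 4 members rose and 2 fell, beside 45.2% of all genes. H2-T22 rose (log2 fold change 1.05 ± 0.27 (SE), adjusted p = 0.0046) from control values of 78.8, 83.5, 107, 138 and 183 CPM, with no overlap. Tapbp (log2 fold change 0.79 ± 0.28 (SE), adjusted p = 0.026), from control values of 129.5, 156, 175, 216 and 256 CPM, and H2-T23 (log2 fold change 0.97 ± 0.35 (SE), adjusted p = 0.0285), from 114 to 316 (median 159.9) CPM, also rose. In this comparison H2-K1 did not pass, although its 15 mg/kg animals (897 to 1243 CPM) all lay above the controls (log2 fold change 0.79 ± 0.36 (SE), adjusted p = 0.0765). Groups without overlap were seen for 4 members here, beside 32.9% of all genes. Without control replicates 2 and 5, the calls of H2-T22, Tapbp, H2-T23 and H2-T24 were lost, and those of H2-Ke6 and H2-Ob remained.

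H2-Ke6 read 60.3, 71.3, 85.8, 104 and 105 CPM in controls and 112, 136, 136, 210.4 and 235 CPM at 15 mg/kg, without overlap (log2 fold change 0.96 ± 0.23 (SE), adjusted p = 0.00259), and this held in all 30 alternatives. It shares 54.5% of its 150-base windows with the overlapping gene Gm20427, so its level is uncertain. H2-Ob fell (log2 fold change −1.79 ± 0.58 (SE), adjusted p = 0.0161) to 0.160, 0.296, 0.370, 0.587 and 0.671 CPM, with one animal above the lowest control. The B cell marker sum lay between 1.15 and 2.55 CPM at this dose, against 3.16 to 5.89 CPM in controls, and 3 of 4 tested B cell markers were called lower with a median of −2.11. Their part in the H2-Ob value was not tested. The heavy chain H2-T24 read 1.57, 2.15, 3.29, 3.99 and 4.75 CPM in controls and had a mean of 1.27 ± 0.647 CPM at 15 mg/kg (SD, n = 5), and also fell (log2 fold change −1.30 ± 0.49 (SE), adjusted p = 0.0372). This H2-T24 call was lost in 9 of 30 alternatives. The authors' deposited table has 12 members higher and 2 lower at a q-value below 0.05 here.

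At 30 mg/kg, 5 members fell relative to control and none rose, beside 34.3% of all genes called and 15.6% called lower. H2-T10 read 2.15, 2.96, 3.62, 4.43 and 6.94 CPM in controls, all above the 30 mg/kg animals (28.5% of all genes did not overlap here; log2 fold change −1.31 ± 0.33 (SE), adjusted p = 0.00573), and this call held in all 30 alternatives. H2-Ob read 0, 0.293, 0.443, 0.447 and 0.629 CPM at 30 mg/kg, below all controls (log2 fold change −1.97 ± 0.58 (SE), adjusted p = 0.0131). Nlrc5, the class I transactivator, read 7.60, 11.6, 13.8, 35.4 and 39.6 CPM in controls and 2.42, 6.22, 6.69, 6.98 and 14.3 CPM at 30 mg/kg. Replicate 6 overlapped the controls and Nlrc5 fell 2.95-fold (log2 fold change −1.56 ± 0.49 (SE), adjusted p = 0.0206), a call lost without control replicate 1. In the same comparison all 7 tested T and NK cell markers were called lower, with a median of −2.61 and sums of 0.586 to 3.26 CPM against 5.52 to 15.4 CPM in controls. All 6 endothelial markers and 4 of 10 macrophage and monocyte markers were also called lower. At 15 mg/kg against control, 6 of 7 T and NK cell and 5 of 6 endothelial markers were called lower, beside 45.2% of all genes called. After cisplatin alone these were 4 of 7 and 4 of 6, beside 13.4%. Nlrc5 was not called in either of those comparisons. The part of these cells in the Nlrc5 value was not tested. H2-K1, whose promoter Nlrc5 is known to act on, did not pass at 30 mg/kg against control (log2 fold change 0.23 ± 0.36 (SE), adjusted p = 0.636).

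H2-Q6 ran from 73.4 to 151 (median 74.9) CPM in controls and from 31.2 to 85.1 (median 47.0) CPM at 30 mg/kg (log2 fold change −0.98 ± 0.33 (SE), adjusted p = 0.0252), and H2-T24 had 30 mg/kg values of 0.704, 0.842, 0.863, 1.92 and 1.93 CPM, lower than in controls (log2 fold change −1.32 ± 0.49 (SE), adjusted p = 0.0432). The H2-Q6 call was lost in 6 of 30 alternatives and the H2-T24 call in 9. H2-Q6 shares 5.99% of its windows with H2-Q7, so part of its reads may be assigned either way. The authors' deposited table has 6 members lower and none higher at a q-value below 0.05, the 5 above and H2-Q5. The class II median against control was −0.14. B cell markers were at 0.22 to 1.58 CPM against 3.16 to 5.89 CPM in controls, with 3 of 4 tested markers called lower, and their part in this H2-Ob value was likewise not tested.

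Between the doses no member and no gene passed with edgeR, of 14858. At an unadjusted p below 0.05 there were 1066 genes (7.17%) and 4 members, H2-T10, H2-M3, H2-Ke6 and Nlrc5, all lower at 30 mg/kg. By limma voom no gene passed, and by DESeq2 1 gene passed. In the point estimates 29 of 31 members were lower at 30 mg/kg, with a median log2 of −0.91 over the 9 class II genes, but the animals overlapped for all tested members except H2-T10, beside 0.693% of all genes without overlap. H2-Ab1 differed by −0.93 ± 0.71 (SE) with an adjusted p of 0.737. A difference between doses was not detectable with this spread.

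The animals of a group differed in class II levels more than in class I levels, though only slightly so at 15 mg/kg. Over the 7 class II genes with a mean of 10 CPM or more, the median SD of log2 CPM was 0.93 in controls, 1.36 after cisplatin, 0.42 with the lower 7-HCG dose and 1.25 with the higher one. For the 7 class I heavy chains above the same level it was 0.51, 0.73, 0.40 and 0.71, and for all 8730 genes above that level 0.29, 0.39, 0.35 and 0.29. H2-DMb2 had the widest spread, 3.50 after cisplatin, where it ran from 0 to 39.0 CPM, and Tapbp the narrowest, 0.07 at 15 mg/kg. These SDs are descriptions and were not compared by a test. The remaining tested members were low or did not pass in any comparison. H2-Q4 ran from 56.2 to 168 CPM in controls and from 72.1 to 301 CPM after cisplatin, H2-Q7 from 29.1 to 58.5 and 10.0 to 51.2 CPM. H2-Oa ran from 0.553 to 1.41 CPM in controls and from 0 to 0.751 CPM after cisplatin (log2 fold change −2.06 ± 0.80 (SE), adjusted p = 0.0928). H2-M3, which presents formylated peptides, ran from 3.24 to 4.78 CPM in controls and from 1.25 to 3.57 CPM after cisplatin. H2-Bl, H2-Q1, H2-Q2, H2-Q5 and H2-Q10 did not pass either.

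**Figure D4:**
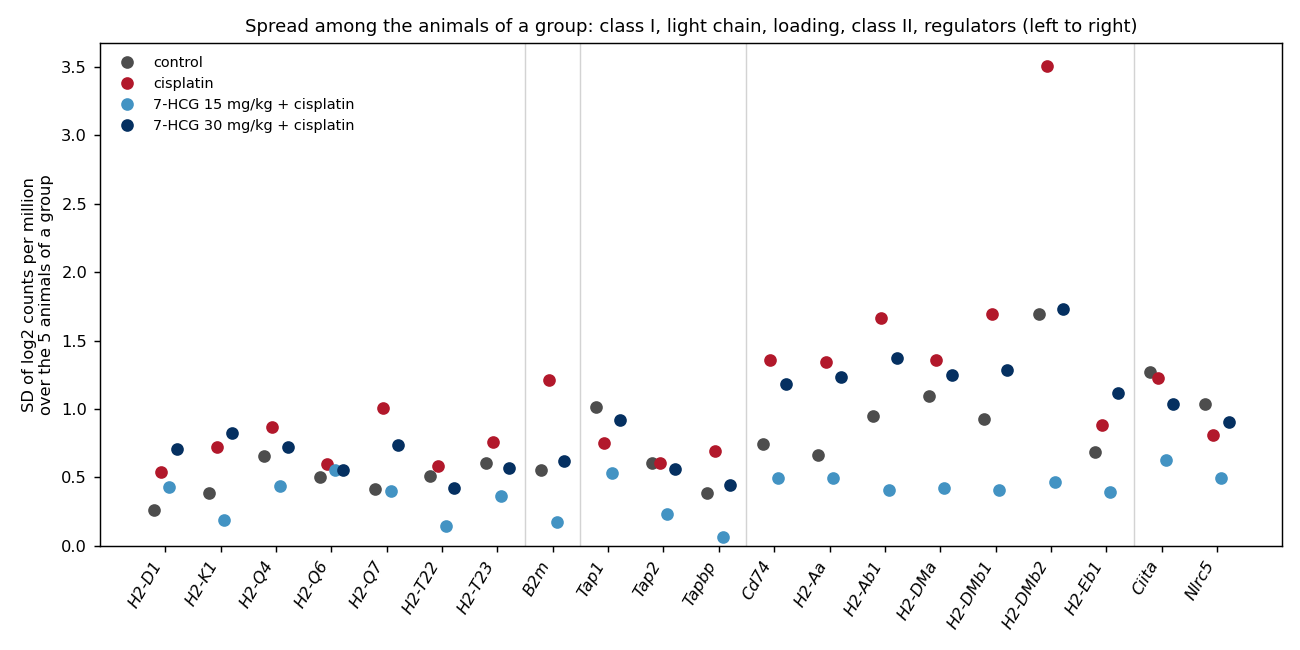
Standard deviation of log2 CPM over the 5 animals of each group, for members with a mean of 10 CPM or more, ordered by role. The class II genes sit highest in the cisplatin and 30 mg/kg groups, up to 3.50 for H2-DMb2, and drop to between 0.40 and 0.50 at 15 mg/kg.

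Class II sums were set beside marker sums animal by animal, as a description with no test. Among the 4 animals with the highest class II sums, 3 had macrophage and monocyte sums of 156, 174 and 187 CPM. The animal at 30 mg/kg replicate 6 had the second highest class II sum of the 20, at 2650 CPM behind 2669 in a 15 mg/kg animal. Its macrophage and monocyte sum was 59.2 CPM, its B cell sum 0.22 and its T and NK cell sum 0.586, each the lowest of the 20. Of the 6 B cell markers 4 had no read in it, so that sum is near the floor. Its dendritic cell sum, 5.64 CPM, was not the lowest, which was 4.47 CPM in 15 mg/kg replicate 5. The tubular injury sum of 30 mg/kg replicate 6, 1804 CPM, was the highest. At the same dose, replicate 1 had a class II sum of 1233 CPM with a macrophage sum of 177 and an injury sum of 22.0, and cisplatin replicate 10 had the lowest class II sum with 87.2 for macrophages. Which cells carried the class II mRNA cannot be read from whole-organ libraries.

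**Figure D5:**
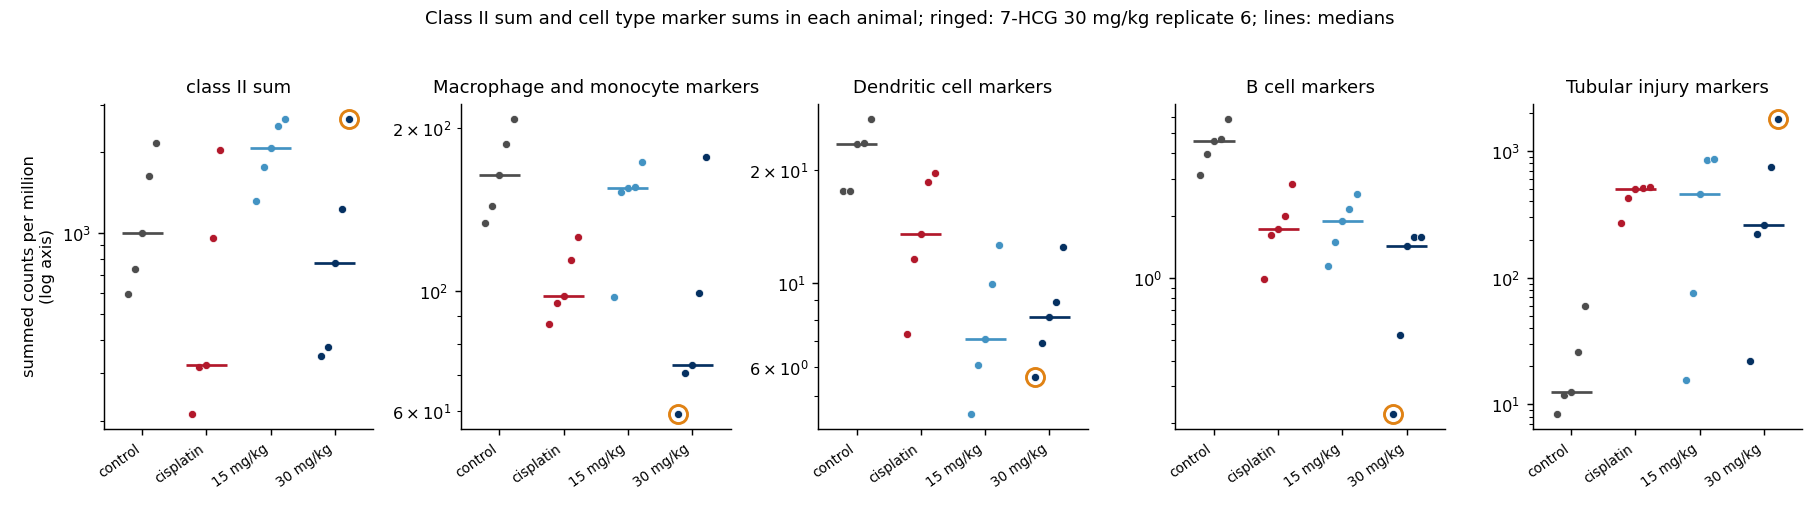
Class II sum and the summed CPM of 4 marker lists in each animal, on log axes, with lines at the medians. The ringed animal, 30 mg/kg replicate 6, is near the top for class II at 2650, at the bottom for macrophage and B cell markers, and at the top for injury markers at 1804.

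Partner genes of the pathway were read from fixed lists, with values given as log2 fold changes. The immunoproteasome and peptide supply list feeds class I. At 15 mg/kg against cisplatin 5 of its 10 genes rose and none fell, beside 18.9% of all genes called higher: the immunoproteasome subunit Psmb10 (log2 fold change 1.56), the proteasome activators Psme1 (1.02) and Psme2 (1.10), and the chaperones Calr (1.08) and Canx (0.78). All 10 were positive, with a median of 1.07. At 30 mg/kg only Canx rose (0.98), with a median of 0.63, beside 27.9% of all genes called. In cisplatin kidneys against control none of the 10 was called, beside 13.4% of all genes.

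Of the class II processing proteases, Lgmn rose in cisplatin kidneys against control (1.09) and was higher again with 15 mg/kg (1.25) and with 30 mg/kg (1.23) than with cisplatin alone. On the class II processing list, 2 of 4 tested genes were called at each dose against cisplatin, both higher. The shares over all genes called were 37.5% at 15 mg/kg and 27.9% at 30 mg/kg. Another gene of the list was negative at both doses (−0.06 and −0.58) and was not called. Besides Lgmn, Ctsb rose at both doses against cisplatin (1.04 and 0.89). These enzymes degrade the invariant chain or antigens in lysosomes and are abundant in tubule cells too. Proximal tubule markers summed to a median of 4142 CPM after cisplatin, of 7725 CPM with the lower and 6758 CPM with the higher 7-HCG dose. Their part in the protease values was not tested.

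Of the 7 promoter-binding factors listed, 1 was called higher and 2 lower at 15 mg/kg against cisplatin, beside 37.5% of all genes called. At 30 mg/kg against cisplatin 1 of the 7 was called, as lower, beside 27.9% of all genes. Rfx5, the X box subunit needed for class II, fell against cisplatin by 1.13 with the lower dose and by 0.87 with the higher one, on the log2 scale. Its partner Rfxap rose at 15 mg/kg (0.47), and Nfyb, a CCAAT box subunit, fell by 0.68. Ifng had no read in any cisplatin or 15 mg/kg library. Of the 9 tested genes on the interferon input list, 6 were positive at 15 mg/kg against cisplatin, with a median of 0.45. Of these 9, 1 was called higher and none lower, beside 18.9% of all genes called higher. Among class I-like genes encoded outside the H2 region, Fcgrt, the neonatal Fc receptor, rose at 15 mg/kg (1.46) and 30 mg/kg (1.21) against cisplatin. Its animals did not overlap, as was the case for 20.2% and 18.6% of all genes in these comparisons. The iron regulator Hfe rose after cisplatin (1.13) and the lipid-presenting Cd1d1 fell (−3.37), both against control.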

How the data were processed

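Kidney RNA of 20 mice in 4 groups of 5 was analysed, grouped by the sample titles. The deposited table holds raw read counts per gene for each library, per the file headers. Trimmomatic, HISAT2, StringTie, FastQC and DESeq2 are listed, with build GRCm38 (mm10), per the submitters' processing notes. Which program counted reads, and with which strand setting, is not given in the sources used here. The log2 fold changes and the p-values and q-values of the authors are in the same deposited table and are quoted only where named. The share of all genes with an authors' q-value below 0.05 was not counted.

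Counts of all 25638 genes entered edgeR 4.0.16 (R 4.3.3) with TMM scaling and its low-count filter, which kept 14858 genes. One robust quasi-likelihood fit over all 20 libraries had 1 coefficient per group (16 residual degrees of freedom). P-values are 2-sided and adjusted by Benjamini-Hochberg over all genes tested, with a threshold of 0.05. CPM values use the TMM-scaled totals. Totals ran from 10714532 to 49602115 counts per library, and 3 counts, the detection floor, equal 0.0496 to 0.375 CPM. The floor covers counting error only, while SDs and SEs include the variation between animals.

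The members and lists were chosen with earlier results of these data known. Members described in full were H2-K1, H2-D1, B2m, H2-Aa, H2-Ab1, H2-Eb1, Cd74, Ciita, Nlrc5, Tap1, Tap2, Tapbp, H2-DMa, H2-DMb1 and any member called in a comparison; H2-DMb2, H2-Oa, H2-M3, H2-Q4 and H2-Q7 are named in addition, after their values were seen. Some results for genes of the fixed lists are not reported here. The class sums, within-animal ratios, the spread limit of 10 CPM and the printed promoters were also chosen with values known. Alternatives were limma 3.58.1 (voom), DESeq2 1.42.0, other scalings, no filter, a replicate block, only the compared groups, and leaving out mitochondrial mRNAs or libraries.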

Additional observations from a re-analysis of the deposited data

Results flagged for a closer look

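Each tested member and class measure was screened on the CPM scale for an animal lying far from the other 4 of its group, by a gap over range above 0.71. Of 136 sets of values 17 met this. Chance gives about 1 in 20 for independent, normally distributed sets, but these sets share animals, and all 17 flagged values are the highest of their group, so that share is no yardstick here. Cisplatin replicate 6 stood out with Ciita at 23.03 CPM, Nlrc5 at 33.74 CPM and H2-DMb2 at 39.03 CPM. At 30 mg/kg, replicate 6 stood out with H2-DMb2 at 59.04 CPM, H2-K1 at 1575 CPM, H2-Q1 at 1.062 CPM, H2-Q4 at 153.2 CPM and Tap2 at 63.69 CPM. Cisplatin replicate 10 was highest in H2-Bl at 4.627 CPM, H2-Ke6 at 200.2 CPM and H2-Q10 at 5.127 CPM. H2-Oa stood out in cisplatin replicate 3 at 0.7508 CPM and in 30 mg/kg replicate 1 at 1.818 CPM. Among controls, replicate 8 was highest in H2-M3 at 4.784 CPM and H2-Q7 at 58.5 CPM, and replicate 5 in H2-Q10 at 5.447 CPM. H2-Q2 reached 3.086 CPM in 15 mg/kg replicate 5. No cause was tested for any of these.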

How the results depend on the processing

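Over 30 alternatives no value called in either analysis changed sign (0 of 660). Of 4919 values called in neither, 265 did, over 63 of 167 member results, the largest at 1.00. The number of members called moved by over 1.5 times as follows; the cause was not tested. For cisplatin against control (1 member) it was 0 without a filter, under the replicate block, without cisplatin 9 and 10 and without control 2 and 5, and 4 by DESeq2. The shares of all genes called were, in that order, 8.38, 0.114, 4.49, 1.92 and 10.6%. DESeq2 shares are over all 25638 genes, here and below. For 15 mg/kg against cisplatin (5) it was 2 with library totals only, 1 without cisplatin 9 and 10, 10 by limma voom and 9 by DESeq2. The shares of all genes were 13.8, 25.2, 32.4 and 24.4%. For 30 mg/kg against cisplatin (2) it was 0 with library totals only, under the replicate block and without cisplatin 9 and 10, 1 with only the 2 groups compared and 4 by DESeq2. The shares of all genes were 9.51, 2.09, 14.4, 23.6 and 19.1%. For 15 mg/kg against control (6) it was 1 with library totals only, 2 without control 2 and 5, and 10 under the replicate block, with only the 2 groups compared and by limma voom. The shares of all genes were 20.9, 27.8, 41.1, 47.6 and 47.2%. For 30 mg/kg against control (5) it was 1 with library totals only, 10 under the replicate block and 8 by limma voom. The shares of all genes were 13.8, 29.1 and 38%. Leaving out 1 library gave 0 to 3, 4 to 14, 1 to 4, 4 to 9 and 2 to 8 members in the same order, and 0 between doses. With 1 library left out, the shares of all genes ran from 5.5 to 14.5, 30.4 to 38.8, 21 to 31.1, 37.3 to 47.3 and 25.6 to 36.9%. Between doses they ran from 0 to 0.0133%. The class II over class I log2 difference then ran from -1.38 to -0.72, 1.03 to 1.69, 0.29 to 0.95, 0.15 to 0.54, -0.59 to -0.27 and, between doses, -0.98 to -0.58.

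Replicate numbers did not pair the animals (15 pairs, r from -0.31 to 0.23, 3 above 0.1). Numbers 9 and 10 occur only in the cisplatin group, so under the replicate block those libraries add nothing to any comparison with that group. Over all genes the replicate block left 17, 1329 and 310 calls in the 3 comparisons with the cisplatin group named first above. Library totals alone moved the median of all genes to -0.35, 0.23 and 0.39 there. The higher and lower calls went from 1250 and 744 to 207 and 676 for cisplatin against control, from 2811 and 2767 to 1537 and 509 at 15 mg/kg against cisplatin, and from 2180 and 1968 to 1220 and 193 at 30 mg/kg. Low members such as H2-Ob, H2-T10 and H2-T24 rest on few reads, which limits their precision.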
